A study of Mus musculus with 6 samples.

Results

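The genes described here are 10 amino acid transporters, 8 of the Slc38 family (Slc38a1, Slc38a2, Slc38a3, Slc38a4, Slc38a6, Slc38a7, Slc38a9 and Slc38a10) and 2 of the Slc7 family (Slc7a2 and Slc7a5), out of 41388 genes listed. They were chosen by name, with the lower level of Slc38a7 in the comparison of Aloxe3 with β-gal already known. That comparison is therefore given for them as a description with its error. No p-value of a member is printed, and where a member is said to be called, or to pass a threshold, this is a description and not independent evidence. RNA was sequenced from primary hepatocytes of C57BL/6J mice, isolated with collagenase and kept in growth medium overnight before virus was added. All cultures received about 1000000 viral particles per 1000000 cells, and RNA was taken 24 h later. Control hepatocytes (replicates 1, 2 and 3) received adenovirus encoding β-gal, and the others (replicates 7, 8 and 9) adenovirus encoding Aloxe3, an epidermal-type lipoxygenase, so that every library came from infected cells (n = 3 per group). The labels do not say whether replicates came from separate mice, so errors measure the spread between these libraries, which may be technical.

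Hepatocytes take up amino acids from blood for protein synthesis, gluconeogenesis and ureagenesis, and much of this passes through sodium-coupled carriers of the Slc38 family, also called SNATs. System A members carry small neutral amino acids such as alanine, whereas system N members carry glutamine, histidine and asparagine. Slc38a7 (SNAT7) and Slc38a9 sit in the lysosome, where SNAT7 exports glutamine and asparagine released from digested protein, and Slc38a9 reports arginine to the kinase complex mTORC1. Slc7a2 (CAT2) carries cationic amino acids, and Slc7a5 (LAT1) exchanges large neutral amino acids as a pair with the heavy chain Slc3a2.

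The libraries held between 25521908 and 32431318 reads, as derived from the steps of the deposited RPKM values (reads per kilobase of gene, scaled to a fixed library size). Aloxe3 was at 1.95 ± 0.18 RPKM in β-gal libraries and 48.1 ± 7.3 RPKM in Aloxe3 libraries (SD over 3 libraries each), as labelled. Aloxe3 replicate 9 stood somewhat apart from its group, since derived reads differed from those of replicates 7 and 8 by a chi-square of 8.99 and 9.82 per degree of freedom, where the other pairs within a group were at 3.47 to 5.46. The 8 hepatocyte markers summed to 5096 to 5125 RPKM in β-gal libraries and to 4921 to 5090 RPKM in Aloxe3 libraries. Most of it was Alb (4524 ± 26 RPKM and 4445 ± 77 RPKM). The plasma protein genes Apoa1 (243 ± 2.9 RPKM and 227 ± 8.5 RPKM, limma adjusted p = 0.349) and Serpinc1 (45.7 ± 1.7 RPKM and 43.1 ± 0.89 RPKM, adjusted p = 0.429) were placed lower with Aloxe3 without overlap. Low hepatocyte markers were placed the other way, also without overlap: the urea cycle enzyme Cps1 was at 0.985 ± 0.069 RPKM and 1.5 ± 0.18 RPKM (SD over 3 libraries each; limma adjusted p = 0.161), and the aminotransferase Tat, below the minimum level for a test, at 0.278 ± 0.078 RPKM and 0.578 ± 0.12 RPKM. Of the 7 hepatocyte markers tested 0 were called by limma and 1 by voom. The summed level of 8 Kupffer cell and leukocyte markers was 151 to 154 RPKM in β-gal libraries and 133 to 146 RPKM in Aloxe3 libraries, nearly all of it Cd68, while Clec4f stayed at or under 0.0705 RPKM in both group means. Summed endothelial markers were at 26.0 to 30.1 RPKM in β-gal libraries and 25.9 to 30.0 RPKM in Aloxe3 libraries, and summed stellate cell and fibroblast markers at 4.43 to 4.92 RPKM and 4.26 to 4.79 RPKM, with Lrat listed at 0 in every library. Summed cholangiocyte markers were at 1509 to 1593 RPKM in β-gal libraries and 1577 to 1716 RPKM in Aloxe3 libraries, nearly all of it Spp1. Krt19 was at 42.9 ± 7.7 RPKM and 38.5 ± 5.2 RPKM. Epcam, without overlap, was at 0.426 ± 0.029 RPKM and 0.265 ± 0.097 RPKM. It was below the minimum level for a test, with 8 to 30 reads per library. Over all tested genes the groups did not overlap for 8.71% in the lower and 11.2% in the higher direction. The part of these markers in the results for the transporters was not tested. In bulk RNA fewer cells of a type and less RNA per cell cannot be told apart.

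The start of Slc38a7 is shown because this was the member whose level differed most between the groups. The stretch below is the reverse strand of GRCm38 at chr8:95853510-95853741, from RefSeq (GRCm38.p6), with 202 bases before the start that GENCODE gives and 30 bases after it. Capitals mark an E-box, CACGTG, the core of the site that the lysosomal gene regulators TFEB and TFE3 are known to bind.
Slc38a7: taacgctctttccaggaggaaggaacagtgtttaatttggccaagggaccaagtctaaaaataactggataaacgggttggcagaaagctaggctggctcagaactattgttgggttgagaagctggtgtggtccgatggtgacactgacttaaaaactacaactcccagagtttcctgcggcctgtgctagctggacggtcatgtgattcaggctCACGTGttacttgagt

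The E-box begins at base 15 after the GENCODE start, which is 34 bases before the start in RefSeq. Promoter windows of 300 bases were at hand for 6 of the 10 transporters, and of these Slc38a7 alone had an E-box, as had 7.15% of all 32851 windows (searched on both strands, and its own reverse complement). The amino acid response element TGATGCAA, which the starvation factor ATF4 is known to bind, was in none of the 6, against 0.895% of all windows. The DR1 element AGGTCANAGGTCA of PPARγ was likewise in none of them, against 0.0396%. A match of letters is a description only, and binding was not measured.

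In these cultured and infected control hepatocytes, with Cps1 and Tat low (above), the 10 genes spanned a wide range of levels, compared here per length as RPKM. The system A carriers Slc38a2, known to be induced when amino acids are scarce, and Slc38a4, a carrier enriched in liver, were highest. Slc38a2 was at 112, 114 and 106 RPKM in the 3 β-gal libraries, a mean of 110 ± 4.3 RPKM (SD, n = 3). Slc38a4 was at 106, 106 and 109 RPKM, a mean of 107 ± 1.5 RPKM (SD, n = 3). The values of both genes overlapped, and together with the third system A gene they lie on the same stretch of chromosome 15 (Slc38a1 from 96571418 to 96642913, Slc38a2 from 96687392 to 96699730 and Slc38a4 from 96994820 to 97055956, all on the reverse strand). Yet Slc38a1 was the lowest of the 10, at 1.81, 1.75 and 1.69 RPKM. Thus, of the summed RPKM of the 10 genes, Slc38a2 made up 32.5 ± 0.82%, Slc38a4 31.5 ± 0.91% and Slc38a1 0.515 ± 0.012% (SD, n = 3).

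Below this pair came Slc38a10, a transporter whose substrates in hepatocytes are less well known, at 39.2 ± 0.63 RPKM (SD, n = 3), and then Slc38a7. Slc38a7 was at 29.1 ± 0.4 RPKM (SD, n = 3), above 84.1% of tested genes, and in each β-gal library it was above Slc7a5. In replicate 1 the margin was small, at 28.9 RPKM for Slc38a7 against 28.7 RPKM for Slc7a5. The lysosomal sensor Slc38a9 was far lower, at 2.03 ± 0.16 RPKM (SD, n = 3). Slc7a2 (10.1 ± 0.72 RPKM) and the system N carrier Slc38a3 (10.0 ± 0.42 RPKM) had overlapping values, whereas Slc38a6, an orphan member of the family, was at 4.98 ± 0.26 RPKM (SD over 3 libraries each). Slc38a9 and Slc38a1 were the lowest, and their values did not overlap in the β-gal libraries. In the order of the 10 genes, then, the only neighbours with overlapping values were Slc38a2 and Slc38a4, and Slc7a2 and Slc38a3.

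**Figure D1:**
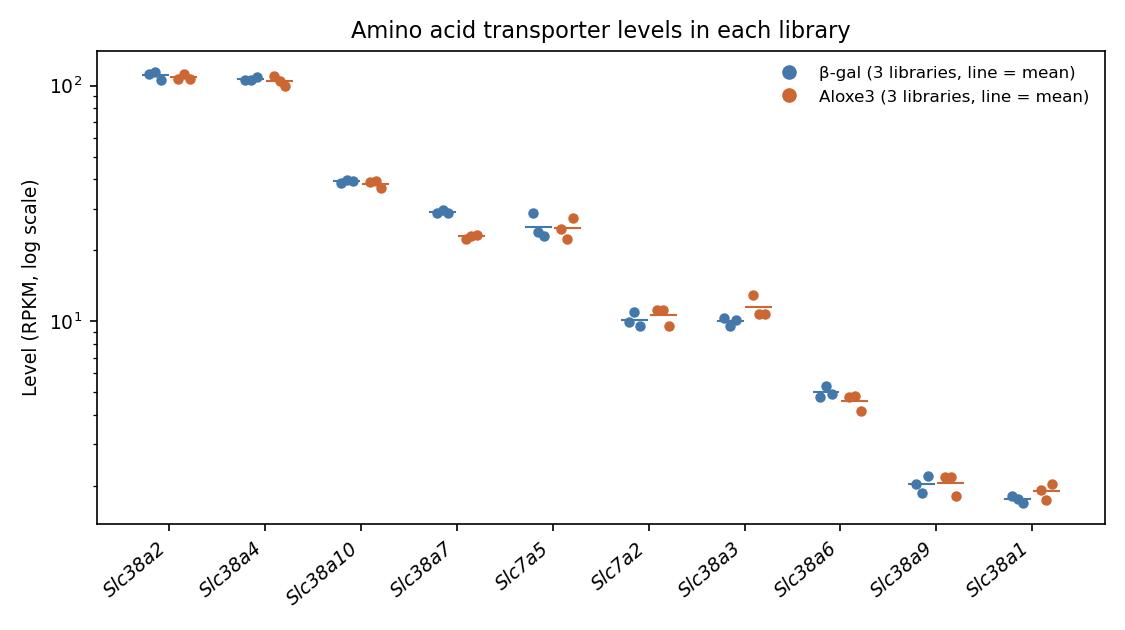
RPKM of the 10 transporters on a log axis, with a point for each of 3 β-gal (blue) and 3 Aloxe3 (orange) libraries and a line for the group mean, ordered by the β-gal mean. Slc38a2 and Slc38a4 sit between 99.6 and 114 RPKM in both groups, and Slc38a7 sits at 28.8 to 29.6 RPKM in β-gal libraries and 22.4 to 23.3 RPKM in Aloxe3 libraries.

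Slc38a7 was lower with Aloxe3 than with β-gal in every library. It lies on chromosome 8 (ENSMUSG00000036534, 95835920 to 95853539, reverse strand), with 12 exon blocks of 4144 bases in all, and no other annotated gene overlaps it. The β-gal libraries had 28.9, 29.6 and 28.8 RPKM and the Aloxe3 libraries 22.4, 23.0 and 23.3 RPKM, from 3534 to 3974 and from 2374 to 2902 reads. The groups did not overlap, and within each group the values were close together. The means were 29.1 ± 0.4 RPKM and 22.9 ± 0.45 RPKM (SD over 3 libraries each), a difference of -21.2%. The log2 fold change was -0.33 (SE 0.034, 95% interval -0.41 to -0.25), on the log2(RPKM + 1) scale of the limma fit used throughout. Its share of the summed RPKM of the 10 genes was 8.43%, 8.64% and 8.63% with β-gal and 6.68%, 6.94% and 7.24% with Aloxe3. Slc38a7 was above Slc7a5 in every β-gal library, but in replicate 1 only at 28.9 against 28.7 RPKM. These values are closer than the mean counting errors of 1.6% and 1.9%. With Aloxe3 the values of both genes overlapped, and no change of order is read from this. Cd68, the macrophage and lysosome gene that led the Kupffer list, was at 148 ± 1.2 RPKM in β-gal libraries and 133 ± 7.2 RPKM in Aloxe3 libraries (SD over 3 libraries each; limma adjusted p = 0.262), and its part in the result for Slc38a7 was not tested. The groups overlapped for the other Kupffer cell and leukocyte markers, with log2 fold changes of -0.056 for Adgre1, -0.022 for Marco and 0.057 for Csf1r, while Clec4f, Timd4, Vsig4 and Ptprc were too low to be tested.

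Of the 10 genes, all of which passed the minimum mean of 0.5 RPKM, 1 was called lower and 0 were called higher at an adjusted p under 0.05 in limma over 12693 genes, and 2 had an unadjusted p under 0.05. Over all tested genes 0.0394% were called lower and 0.355% higher, 0.394% in all, while 12.7% had an unadjusted p under 0.05. Since Slc38a7 was known to be called when the genes were chosen, nothing is read from this count. With voom on derived reads the same single transporter was called. The call of Slc38a7 was lost in the fits without β-gal replicate 1, 2 or 3 or without Aloxe3 replicate 7 or 8, with log2 fold changes of -0.34, -0.32, -0.34, -0.32 and -0.33 respectively, and was kept without Aloxe3 replicate 9, at -0.34.

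The system N carrier Slc38a3 was the only member whose Aloxe3 libraries all lay above its β-gal libraries. It was at 10.3, 9.53 and 10.1 RPKM in β-gal libraries and at 12.9, 10.7 and 10.7 RPKM in Aloxe3 libraries. Among them Aloxe3 replicate 7 was well above the other libraries, and the gene was not called. The log2 fold change was 0.17 (SE 0.073, 95% interval 0.002 to 0.34), and it was 0.088 without that replicate. Thus 1 of the 10 genes had non-overlapping groups in the lower direction and 1 in the higher direction, against 8.71% and 11.2% of all tested genes.

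The remaining 8 transporters had overlapping groups, and their 95% intervals included 0. For the abundant carriers these intervals were narrow. Slc38a2 was at 107, 112 and 107 RPKM in Aloxe3 libraries, and its log2 fold change was -0.020 (95% interval -0.12 to 0.075). Slc38a4 was at 110, 105 and 99.6 RPKM in Aloxe3 libraries, lowest in replicate 9, with a log2 fold change of -0.034 (95% interval -0.13 to 0.066). Slc38a10 was at 38.9, 39.3 and 36.7 RPKM in Aloxe3 libraries, with a log2 fold change of -0.033 (95% interval -0.12 to 0.056). The value fitted for Slc38a7, -0.33, lay below the 95% intervals of all 9 other members, whose lowest limit was -0.25. The lower level of Slc38a7 was known when the genes were chosen, so this is a description only. Differences between the genes were not tested.

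Slc7a5 was the most variable of the 10 in β-gal libraries. Its β-gal libraries had 28.7, 24.0 and 22.9 RPKM and its Aloxe3 libraries 24.7, 22.4 and 27.3 RPKM, so that the highest values came from β-gal replicate 1 and Aloxe3 replicate 9. The log2 fold change was -0.021 (95% interval -0.24 to 0.20). Its partner Slc3a2 was at 127 ± 5.7 RPKM in β-gal libraries and 125 ± 1.7 RPKM in Aloxe3 libraries (SD over 3 libraries each; log2 fold change -0.012, limma adjusted p = 0.928). Slc7a2 had a log2 fold change of 0.059 (95% interval -0.10 to 0.22), with 9.93, 10.9 and 9.49 RPKM in β-gal libraries and 11.1, 11.1 and 9.56 RPKM in Aloxe3 libraries. Leaving out β-gal replicate 3 gave 0.019 for Slc7a2, and leaving out Aloxe3 replicate 9 gave 0.12.

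The 3 transporters lowest in level had overlapping groups as well. Slc38a6 was at 4.77, 5.28 and 4.90 RPKM in β-gal libraries and 4.76, 4.81 and 4.15 RPKM in Aloxe3 libraries (log2 fold change -0.10, 95% interval -0.25 to 0.039), and the value was -0.048 without Aloxe3 replicate 9. Slc38a9, from 427 to 587 reads per library, was at 2.04, 1.87 and 2.19 RPKM in β-gal libraries and 2.18, 2.17 and 1.81 RPKM in Aloxe3 libraries (log2 fold change 0.009, 95% interval -0.16 to 0.17). Of the 2 lysosomal members, then, the groups of Slc38a9 overlapped and those of Slc38a7 did not, and the difference between the genes was not tested. Slc38a1 was at 1.91, 1.74 and 2.03 RPKM in Aloxe3 libraries, with a log2 fold change of 0.074 (95% interval -0.062 to 0.21). The log2(RPKM + 1) scale understates changes at such levels. Over the 10 genes the median log2 fold change was -0.021, beside 0.005 over all tested genes, with 6 genes fitted lower and 4 higher.

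**Figure D2:**
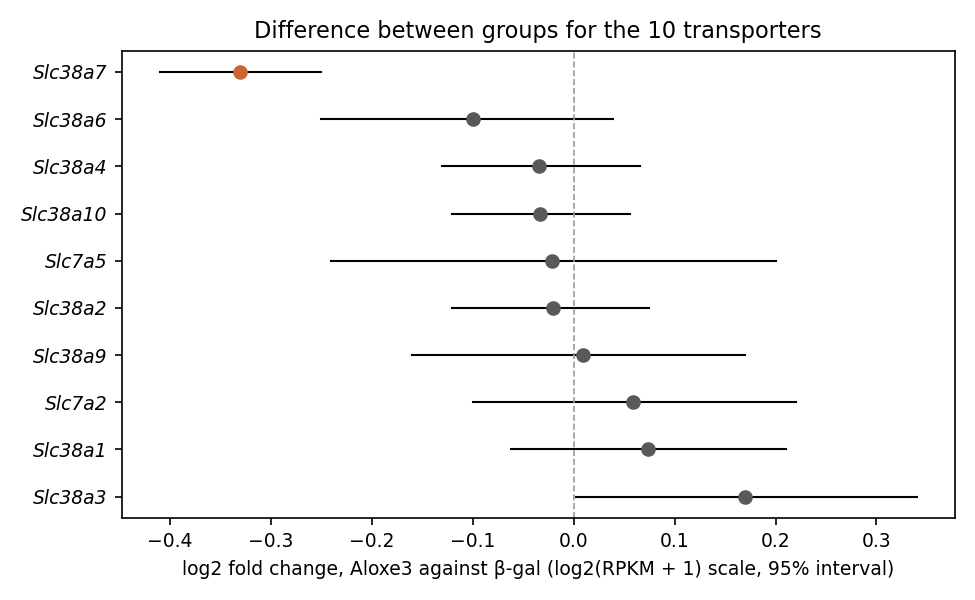
Log2 fold change of each transporter (Aloxe3 against β-gal, log2(RPKM + 1) scale) with its 95% interval from limma. Slc38a7 lies at -0.33 with an interval from -0.41 to -0.25, and 8 of the 10 intervals include 0.

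The spread between libraries differed from member to member. For Slc38a7 the SD between libraries was 1.4% of the mean with β-gal and 2.0% with Aloxe3, close to the 1.6% and 2.0% that counting error alone gives for its reads. Among the 7366 genes averaging 5 RPKM or more the median was 3.3% with β-gal and 4.6% with Aloxe3. Slc38a10 (1.6% and 3.6%) and Slc38a4 (1.4% and 5.0%) were also even with β-gal. In contrast, the SD of Slc7a5 was 12% of the mean with β-gal and 10% with Aloxe3, against a counting error of 1.9% and 2.0%. With Aloxe3 the SD of Slc38a3 was 11% of the mean and that of Slc38a9 10%, beside 4.2% and 8.1% with β-gal. Slc7a2 was at 7.1% and 8.4%, while for Slc38a1 the spread of 3.5% with β-gal was below the counting error of 4.7%. With 3 libraries each of these SDs is itself imprecise.

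**Figure D3:**
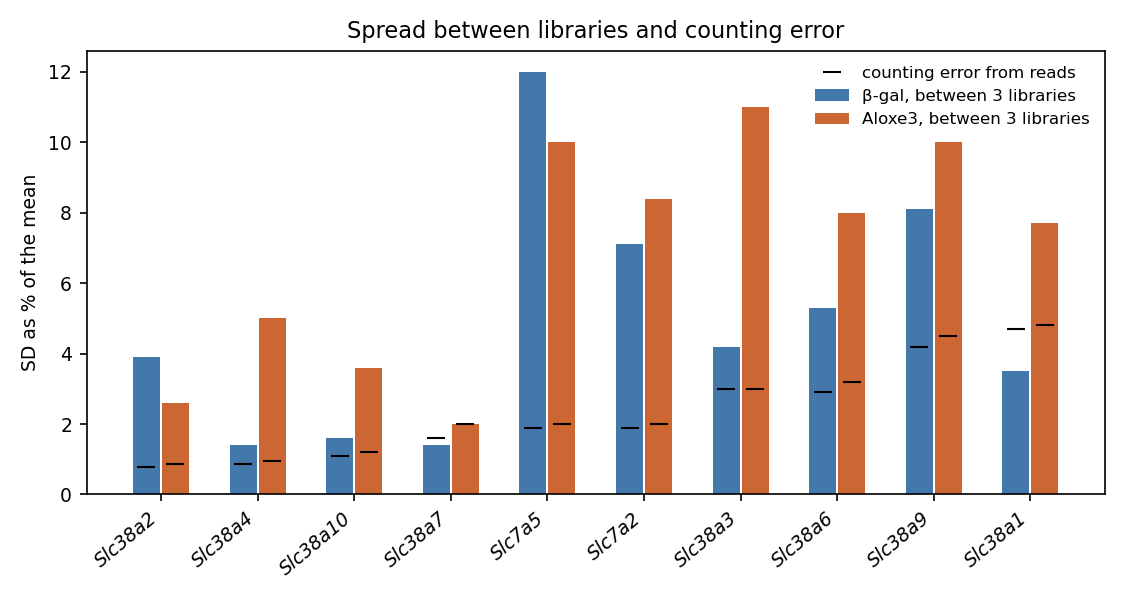
SD between the 3 libraries of a group as a percentage of the mean (bars, β-gal in blue and Aloxe3 in orange), and the counting error expected from the derived reads (black dashes). For Slc38a7 the bars of 1.4% and 2.0% lie near the dashes, and for Slc7a5 they reach 12% and 10%.

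To see whether genes beside Slc38a7 shared its lower level, the tested genes with a start within 200 kb of its own were examined. Of these 6 genes, 0 were called in limma and 4 had an unadjusted p under 0.05, in both directions, against 12.7% of all tested genes. These neighbours include a pair of small nucleolar RNA genes with at most 5 reads per library. The mean of Gm26265, a gene of this pair, was 0.32 RPKM over β-gal libraries, below the minimum of 0.5 RPKM, against 0.73 RPKM over Aloxe3 libraries. Gm26265 thus passed the minimum only through the group in which it was higher. It is among the 4 genes, so nothing is read from their count against 12.7%. Got2, the mitochondrial aspartate aminotransferase, starts 35.0 kb away and had 64.2, 62.1 and 61.9 RPKM in β-gal libraries and 62.8, 61.5 and 63.2 RPKM in Aloxe3 libraries (log2 fold change -0.004, SE 0.033, adjusted p = 0.971). Cnot1, a scaffold of the CCR4-NOT deadenylase, starts 46.1 kb away and was at 40.4 ± 0.37 RPKM in β-gal libraries and 41.9 ± 1.2 RPKM in Aloxe3 libraries (adjusted p = 0.565). These are the nearest tested genes on either side. The groups overlapped for Got2, and for Cnot1 all Aloxe3 libraries were above all β-gal libraries by a small margin. Farther out, Setd6, a lysine methyltransferase gene, had 18.3 ± 0.45 RPKM in β-gal libraries and 17.1 ± 0.27 RPKM in Aloxe3 libraries, and Ndrg4 had 2.73 ± 0.14 RPKM and 2.14 ± 0.13 RPKM (SD over 3 libraries each). Their log2 fold changes were -0.10 and -0.25 (limma adjusted p = 0.33 and 0.166). For both genes the groups did not overlap, and for Ndrg4 the difference between the means was -21.6%, beside -21.2% for Slc38a7. The small nucleolar RNA genes Gm26493 and Gm26265 within Cnot1 had log2 fold changes of 0.42 and 0.38 from as few as 2 and 1 reads per library (adjusted p = 0.182 and 0.353).

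**Figure D4:**
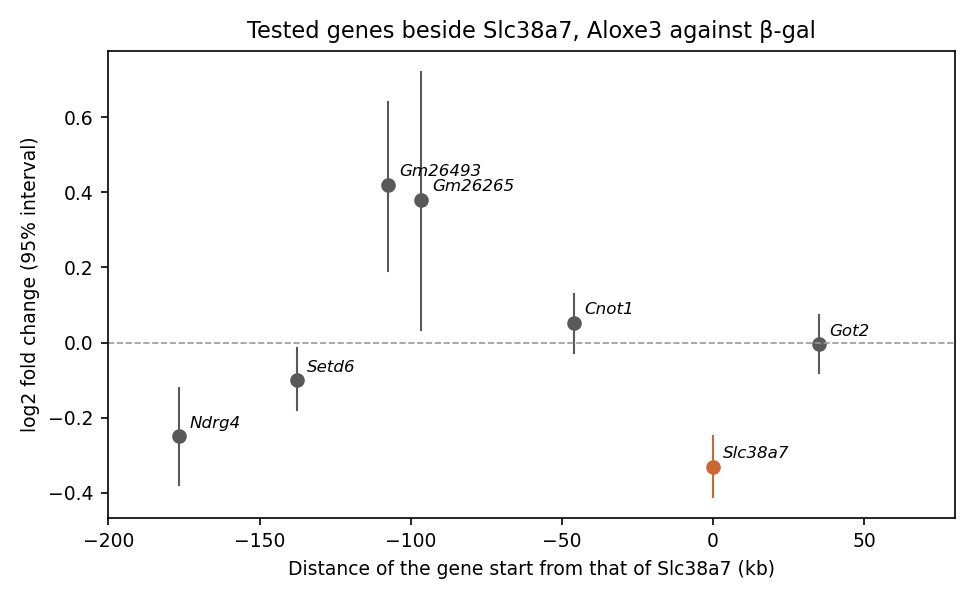
Log2 fold change with its 95% interval for Slc38a7 (orange) and the 6 tested genes within 200 kb, against the distance between gene starts in kb (negative towards lower coordinates). Got2 at 35.0 kb and Cnot1 lie near 0, at -0.004 and 0.053, while Slc38a7 lies at -0.33.

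Genes whose pattern across the 6 libraries was most like that of Slc38a7 were ranked by Pearson's r of log2(RPKM + 1) among the 7365 other genes averaging 5 RPKM or more. The points fall into 2 groups, and r therefore follows any group difference, so no p is given. The highest were Marveld2 (r = 0.995), a tight junction gene, Nr2f6 (0.993), an orphan nuclear receptor gene, Birc3 (0.989), an inhibitor of apoptosis, Apoa2 (0.982), an apolipoprotein of high-density lipoprotein, and Nrbp1 (0.981). Around the group means, r was 0.770, 0.641, -0.073, 0.375 and 0.001 for the same genes. Marveld2 was at 8.86 ± 0.036 RPKM in β-gal libraries and 8.46 ± 0.037 RPKM in Aloxe3 libraries, a difference of -4.45%, and the differences of Nr2f6, Birc3 and Nrbp1 were between -5.08% and -8.1%. Apoa2 differed more, at 280 ± 8.3 RPKM and 237 ± 0.21 RPKM (SD over 3 libraries each, -15.5%), and was itself among the 5 genes called lower. Its limma adjusted p of 0.0498 was close to the threshold. In the fits without β-gal replicate 1 or without Aloxe3 replicate 7 or 8, 0 genes were called lower. The most opposite were Fgb (-0.995), the fibrinogen beta chain, Mat1a (-0.992), the liver enzyme that makes S-adenosylmethionine, and Lig1 (-0.990), a DNA ligase of replication. Mat1a was at 7.5 ± 0.27 RPKM in β-gal libraries and 10.4 ± 0.56 RPKM in Aloxe3 libraries. Around the group means their r was -0.770, -0.896 and -0.588. Of the 7365 genes, 25 had an r of at least 0.95 and 51 a negative r of at least this size, and none of the 6 other transporters at this level was among either, Slc38a10 being highest with 0.405 and Slc38a3 lowest with -0.764.

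Other genes that move or use amino acids were examined as lists in the same fit, and here p-values are given. The lists too were chosen with earlier results of these data known, so these p-values are not independent evidence. Over all tested genes 0.394% were called by limma and 12.7% had an unadjusted p under 0.05. Of 16 further Slc38 and Slc7 genes, 8 passed the minimum level. Of these 0 were called by limma or by voom, and 1 had an unadjusted p under 0.05. It was Slc7a11, the cystine and glutamate exchanger, at 18.3 ± 0.37 RPKM in β-gal libraries and 20 ± 1.4 RPKM in Aloxe3 libraries (SD over 3 libraries each; limma adjusted p = 0.392). It was followed by Slc7a6, a light chain for cationic and neutral amino acids, at a fitted log2 difference of -0.10 (SE 0.057, adjusted p = 0.51). Slc7a12, Slc7a13 and Slc7a14 were listed at 0 in every library.

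Of 26 cell surface transporters of other families, 10 were tested and 0 were called by either tool, with 3 at an unadjusted p under 0.05. For this and the next lists, the shares over all tested genes were 0.394% called by limma and 12.7% at an unadjusted p under 0.05. The neutral amino acid exchangers Slc1a5 and Slc1a4 were placed in opposite directions. Slc1a5, the glutamine carrier ASCT2, was at 2.49 ± 0.15 RPKM in β-gal libraries and 2.95 ± 0.21 RPKM in Aloxe3 libraries, and Slc1a4 at 17.2 ± 0.99 RPKM and 15.5 ± 0.32 RPKM (SD over 3 libraries each). Their groups did not overlap, yet the limma adjusted p was 0.30 for Slc1a5 and 0.318 for Slc1a4. Among the 7 other lysosomal transporters, all tested, 0 were called by either tool and 0 had an unadjusted p under 0.05, and the median log2 fold change was 0.030. Slc15a4, a lysosomal carrier of histidine and peptides, came closest, at 15.9 ± 0.32 RPKM in β-gal libraries and 15 ± 0.35 RPKM in Aloxe3 libraries (SD over 3 libraries each; adjusted p = 0.425), and next came Slc15a3 at a fitted log2 difference of 0.055 (SE 0.058, adjusted p = 0.732). Of 8 tested mitochondrial carriers 0 were called by either tool and 0 had an unadjusted p under 0.05. The glutamate carrier Slc25a18 had the largest fitted log2 difference among them, 0.31 (SE 0.13, adjusted p = 0.397) from as few as 27 reads, beside -0.058 (adjusted p = 0.559) for Slc25a22 and -0.033 (adjusted p = 0.844) for Slc25a44, the highest in level.

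Among 18 enzymes of glutamine, glutamate and asparagine, all tested, 1 was called higher and 0 lower, and 4 had an unadjusted p under 0.05, 2 in each direction. Over all tested genes the shares were 0.355% called higher, 0.0394% called lower and 12.7% at an unadjusted p under 0.05. In all 7 were fitted higher and 11 lower, with a median log2 fold change of -0.004. Gpt2, the mitochondrial alanine aminotransferase that passes amino groups between alanine and glutamate, rose from 33.6 ± 0.45 to 41.2 ± 1.5 RPKM (SD over 3 libraries each). All 3 Aloxe3 libraries lay above all β-gal libraries, and the log2 fold change was 0.28 (SE 0.038, limma adjusted p = 0.0328). The call of Gpt2 was lost in every fit that left out a library other than Aloxe3 replicate 9, at log2 fold changes from 0.27 to 0.29 (0.31 without replicate 9), and the alternatives gave adjusted p-values between 0.00139 and 0.146. Aspg, which hydrolyses asparagine, was at 2.40 ± 0.14 RPKM in β-gal libraries and 3.16 ± 0.36 RPKM in Aloxe3 libraries (SD over 3 libraries each), without passing (adjusted p = 0.22). Glud1, the glutamate dehydrogenase and the most abundant of the list, differed by 0.043 on the log2 scale (adjusted p = 0.70). The lowest fitted value of the list, -0.19, was that of Gpt, the other alanine aminotransferase, which was not called and is named here after its value was seen.

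Genes that respond to amino acid scarcity through ATF4 gave 0 calls by either tool among 19 tested, with 2 at an unadjusted p under 0.05 and a median log2 fold change of 0.052. For this list and the next, the shares over all tested genes were 0.394% called by limma and 12.7% at an unadjusted p under 0.05. Ddit4, an inhibitor of mTORC1, was at 49.8 ± 2.6 RPKM in β-gal libraries and, without overlap, at 43.6 ± 2.8 RPKM in Aloxe3 libraries (SD over 3 libraries each; limma adjusted p = 0.285). Eif4ebp1, the most abundant, had a log2 fold change of -0.036 (adjusted p = 0.753). Slc38a2 and Slc7a5, which are known targets of this response, had overlapping groups (above). Of 29 tested genes of lysosomal amino acid sensing by mTORC1, 0 were called by either tool and 3 had an unadjusted p under 0.05. The GATOR1 subunit gene Depdc5 was at 2.59 ± 0.057 RPKM in β-gal libraries and 2.94 ± 0.11 RPKM in Aloxe3 libraries, and the arginine sensor gene Castor1 at 6.54 ± 0.33 RPKM and 5.73 ± 0.45 RPKM (SD over 3 libraries each; limma adjusted p = 0.32 and 0.333). Sec13, a GATOR2 and coat protein subunit gene, differed by -0.16 on the log2 scale (SE 0.074, adjusted p = 0.421).

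**Figure D5:**
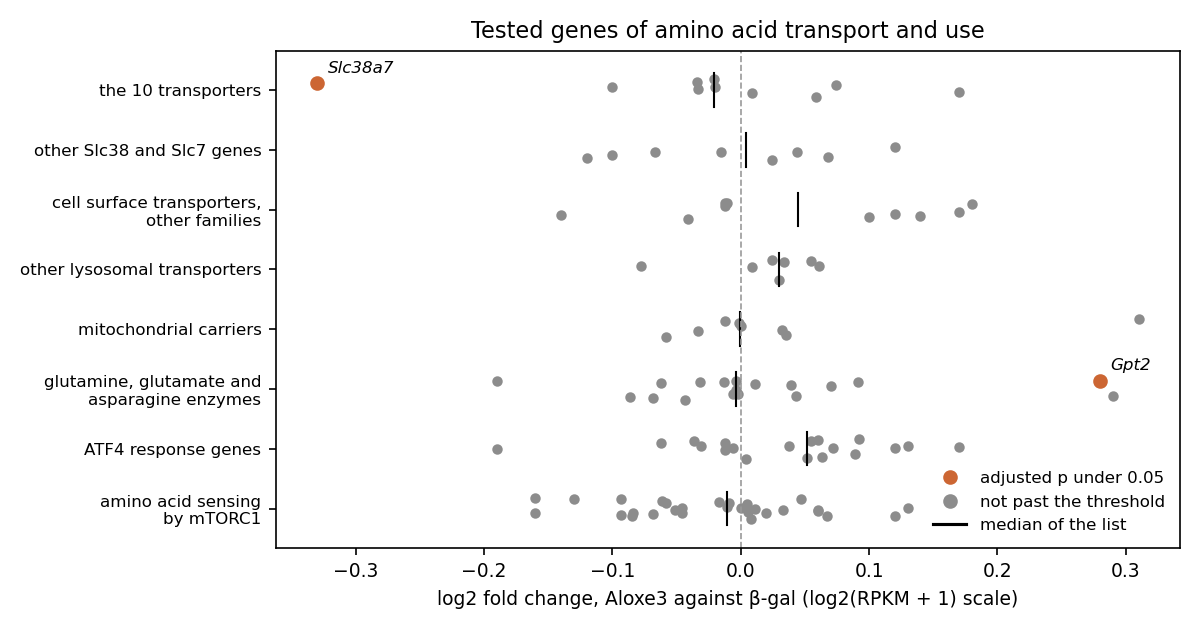
Log2 fold change (Aloxe3 against β-gal, log2(RPKM + 1) scale) of every tested gene in the 10 transporters and 7 related lists, with a black line at each list's median and orange for genes past an adjusted p of 0.05. Slc38a7 at -0.33 and Gpt2 at 0.28 are the genes past the threshold.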

How the data were processed

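RNA-seq libraries were prepared by the study from poly-A selected RNA and sequenced as single reads of 50 bases. The authors aligned reads with STAR 2.0.4b to the Ensembl release 76 assembly (GRCm38.p2), counted unique unambiguous reads per gene with featureCounts 1.4.5 and deposited RPKM values. The step from counts to RPKM is not given in the sources used here. Values were used as deposited. Symbols and positions come from GENCODE M21 (GRCm38), to which 40340 of 41388 identifiers matched. Reads were derived as whole multiples of the RPKM steps (tolerance 0.02 reads), with the GENCODE exon length for 16548 genes and otherwise the smallest length giving whole reads, which was used for Slc38a1, Slc38a2, Slc38a3, Slc38a4 and Slc38a9. Counting errors cover counting only. The library kit did not mark strand, and genes annotated on the opposite strand overlap Slc38a9, Slc38a10 (0.268 RPKM), Slc7a2 (0.142 RPKM) and Slc7a5 (listed at 0).

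log2(RPKM + 1) was fitted with limma 3.58.1 in R 4.3.3 (eBayes with trend) for the 12693 genes averaging 0.5 RPKM or more, with Benjamini-Hochberg adjustment at 0.05. No batch is given in the labels. Replicate pairs differed by more than sampling noise (chi-square per degree of freedom from 3.47 to 9.82, highest for those with Aloxe3 replicate 9), so no pair held the same reads. All libraries were kept in the main fit, and fits without each of them are given as alternatives. The fit was tested on simulated data. The members, lists and alternatives were chosen with earlier results of these data known.

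The genes named are the 10 transporters and Aloxe3, the tested genes within 200 kb of Slc38a7, the 5 genes most like and 3 most unlike it, and, for each list of transporters, enzymes or sensing genes, those past the threshold, the 2 with the smallest adjusted p and the most abundant. Mcm6 (adjusted p = 0.0498) and Tuba1a (adjusted p = 0.0501) lay just inside and outside the threshold. Cell type markers and lists were written by hand, and the markers and Gpt named singly were picked after their values were seen. Python 3.11.15, pandas 2.3.3 and matplotlib 3.10.9 were used for tables and figures.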

Additional observations from a re-analysis of the deposited data

How the results depend on the processing

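Alternatives were a pseudocount of 0.1, no filter, a minimum mean of 5 RPKM, equal medians, quantile normalization, eBayes without trend, voom on derived reads and leaving out each library. The log2 fold change of Slc38a7 stayed between -0.34 and -0.32 in all 13, and it was called in 8 of them. Without a library, 0 to 1 of the 10 transporters, 0 to 1 of the glutamine, glutamate and asparagine enzymes and 6 to 19 of all genes were called. Over all genes 7 of 24989 were called without a filter and 174 with voom. Among the enzymes 0 were called without a filter and 0 without trend. In the other 6 lists 0 genes were called under each of the 13 alternatives. None of the other 9 transporters was called in any alternative, but the fitted direction of Slc38a2 (-0.052 to 0.014), Slc38a4 (-0.069 to 0.002), Slc38a9 (-0.032 to 0.067) and Slc7a5 (-0.091 to 0.073) turned in some. That of Slc38a1 (0.03 to 0.11), Slc38a6 (-0.14 to -0.048) and Slc7a2 (0.019 to 0.12) did not. By reads in place of RPKM, Slc38a7 stayed at place 4 among the 10 with β-gal. The causes were not tested. No paired analysis was possible because the groups share no replicate numbers. Depth limits Slc38a1 and Slc38a9 most, with at most 587 reads per library.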
